A study of Mus musculus with 6 samples.

Results

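The cadherin and protocadherin genes were followed in mouse muscle stem cells (MuSCs) with and without an intact Taf4a gene. Protein-coding rows of the expression table were taken where the symbol was Cdh followed by a number alone, or began with Cdhr or Pcdh, and where the mean over the 6 libraries was at least 5 normalized counts. This gave 70 genes of 22081 rows, 18562 of which reached that mean and were tested. They comprised 4 type I classical cadherins, 7 type II classical cadherins, 3 atypical cadherins, 3 cadherin-related genes, 11 non-clustered protocadherins and 42 clustered protocadherins. The rule itself uses names and mean levels only, but the family was taken up with earlier results of these data known. Total RNA from freshly isolated, FACS-sorted MuSCs of C57BL/6 mice was sequenced in 6 libraries, 3 control and 3 Taf4asKO. Taf4asKO mice carried Pax7CRE-ERT, a Cre recombinase that tamoxifen activates in cells expressing Pax7, together with Taf4a flox/flox, and received tamoxifen. Controls were Taf4a flox/flox littermates with or without the Cre allele, and either genotype could carry a Pax7-zsGreen reporter. The list of genotypes names tamoxifen for Taf4asKO, the study's legends speak of tamoxifen in work on both groups, and whether the controls of these libraries received it is not given in the sources used here. The animals were adults, but the labels give neither age nor sex of a library, nor whether animals were pooled. The p-values below therefore measure the spread between these libraries.

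Cadherins are transmembrane proteins that hold neighbouring cells together through calcium-dependent contacts of their extracellular repeats. Classical cadherins pass that contact to the actin cytoskeleton through beta-catenin, p120-catenin and alpha-catenin, whereas protocadherins adhere more weakly, lack the catenin-binding tail and are best known for cell recognition in the nervous system. In resting muscle, M-cadherin (Cdh15) and N-cadherin (Cdh2) sit where the stem cell touches its muscle fibre, and both are known as adhesion molecules of that niche.

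Each library held between 12338676 and 14551732 normalized counts, from an estimated 10.6 M to 17.6 M reads. Pax7, the transcription factor that defines MuSCs, gave control values of 12082, 12244 and 13007 and lower Taf4asKO values of 10669, 10363 and 11164, which do not overlap (log2 fold change -0.21, adjusted p = 0.161 by limma). Taf4 itself, counted over the whole gene, was read at 613, 534 and 478 in the controls and at 631, 565 and 574 in Taf4asKO (log2 fold change 0.13, adjusted p = 0.524 by limma), so this total did not separate the groups and does not check the exon deletion. Group names therefore stand for the labels. The Y-linked Ddx3y was read at 1203 to 1889 in every library, so each held male RNA. The X-inactivation RNA Xist was read at 7, 5 and 8 in control and 22, 27 and 38 in Taf4asKO, all above control (log2 fold change 1.95, adjusted p = 0.00795 by limma).

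Of the 70 genes, 7 (10.0%) passed an adjusted p of 0.05 with a change of at least 1.3-fold by limma, beside 12.6% of all 18562 genes tested and 15.1% of the 13969 protein-coding ones. Cdh15, Pcdh15 and Pcdh17 fell in Taf4asKO, where 6.71% of all genes fell, and Cdh19, Pcdh1, Pcdh19 and Pcdh20 rose, where 5.93% of all genes rose. The share over the whole family was thus near the background and is no result about the family. All 7 lay among the 28 genes outside the clusters (25.0%), and none among the 42 clustered protocadherins. Same-numbered libraries of the 2 groups deviated together, and with the replicate number as a term in the fit 13 of 70 (18.6%) passed, beside 18.1% of all genes and 21.4% of the protein-coding ones. The 6 genes gained were Cdh1, Cdh5, Cdh6, Cdh10, Cdh11 and Pcdh8, all higher in Taf4asKO, and no gene was lost. That made 3 lower and 10 higher, where 8.98% and 9.09% of all genes were. At a fold limit of 2 the count was 4, Pcdh15 and Pcdh17 lower and Cdh19 and Pcdh20 higher, beside 4.58% of all genes (2.8% lower, 1.78% higher). Cdh19 alone passed limma treat, a test against the 1.3-fold limit itself, beside 2.34% of all genes (1.64% lower, 0.706% higher), and alone passed an adjusted p of 0.01, beside 4.72% (2.94% lower, 1.78% higher). Leaving out 1 library moved the count. It was 3 without control replicate 1, 13 without control replicate 2 and 9 without control replicate 3, beside 9.2%, 16.8% and 11.7% of all genes. It was 1, 3 and 1 without Taf4asKO replicates 1, 2 and 3, beside 6.98%, 5.18% and 5.17%. Pcdh15 and Pcdh8 reached the mean of 5 only through the group in which they were high, so a difference was built into their passing that limit. Of the other 68 genes 6 passed, and 11 with the replicate number in the fit. At a mean of at least 10, which leaves out both, 6 of 65 genes passed, beside 14.5% of all genes. The values of the 2 groups did not overlap for 17 genes (24.3%), beside 33% of all genes, with 6 lower and 11 higher in Taf4asKO, beside 16.4% and 16.6%. The median log2 fold change was 0.06 over the 70 genes and 0.004 over all genes. Cdhr4, Pcdh7, Pcdh8, Pcdh10, Pcdh19, 7 gamma genes and 1 beta gene overlap an annotated gene on the other strand, whose reads may be included in their counts.

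**Figure D1:**
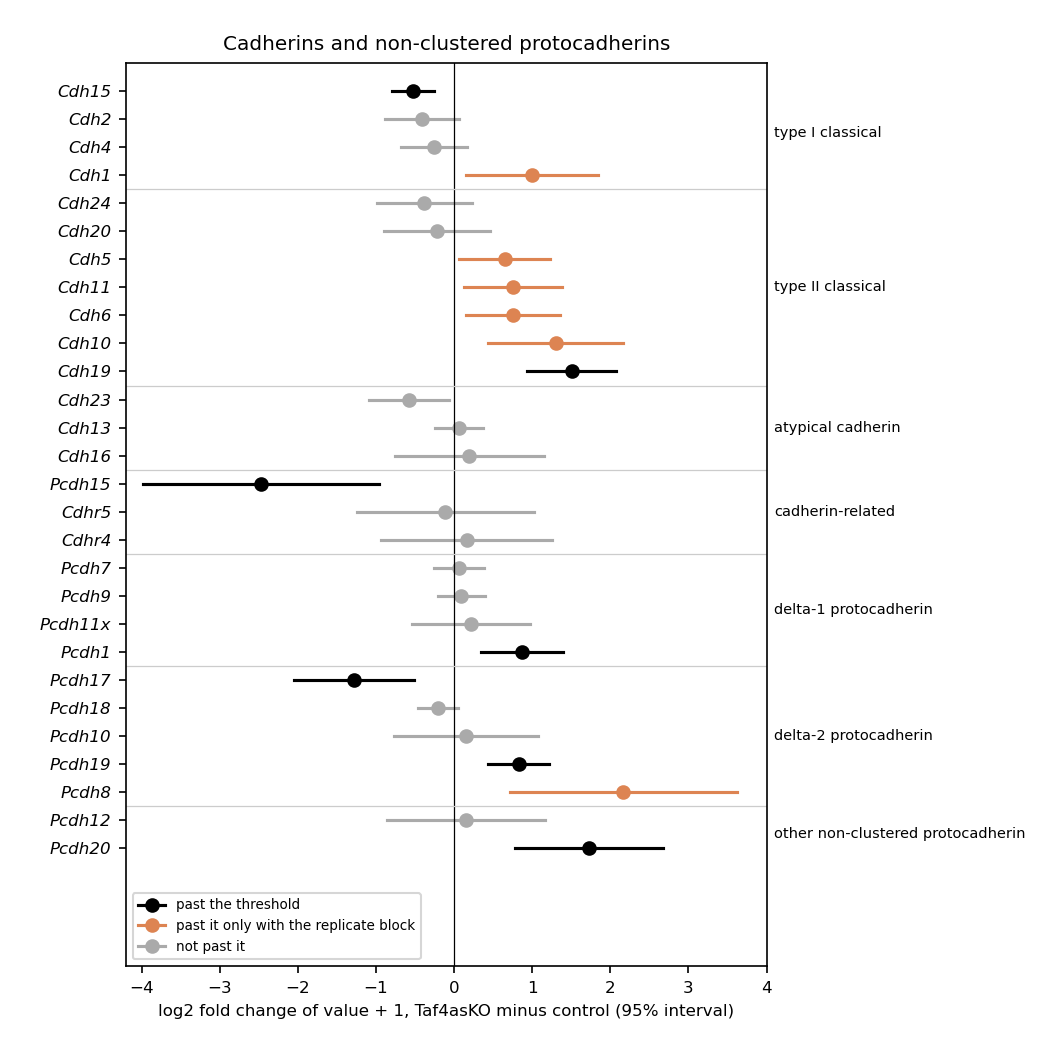
The 28 genes outside the protocadherin clusters by class, with the log2 fold change of value + 1 (Taf4asKO minus control) on the x axis and its 95% interval as a bar. The 7 black genes passed the threshold, the 6 orange ones did not but passed with the replicate number in the fit, and Pcdh15 and Pcdh8 have the widest intervals.

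Levels between genes were compared as normalized counts per kilobase of exon that no other gene shares. In control, Cdh15 stood first at 1417 ± 220 (SD, n = 3), followed by Pcdhgc3 at 554 ± 62.6, a C-type isoform of the gamma protocadherin cluster. Part of Pcdhgc3 overlaps a gene on the other strand, and with that part kept in its length the level was 298 ± 33.7, still second, an alternative added after seeing the data. Pcdh18 at 234 ± 17.4, Cdh13 at 217 ± 45.8 and Pcdh7 at 185 ± 36.2 came next and their library ranges overlapped from neighbour to neighbour, so their order is not resolved. Cdh4 (R-cadherin) at 119 ± 26.7 and Pcdhgb6 at 112 ± 14.0 followed, again within each other's spread. Cdh2, the other niche cadherin, was at 35.1 ± 9.67, rank 29 of 70. The lowest-ranking gene in control was Pcdh8 at 0.406 ± 0.508, whereas in Taf4asKO it was Pcdh15 at 0.0701 ± 0.0643. In control Pcdh15 was at 0.561 ± 0.310 and its library range lay inside that of Pcdh8, so their order there is not resolved. In Taf4asKO the level of Cdh15 was 981 ± 76.9 and still above every other gene of the family, with Pcdhgc3 at 511 ± 15.9.

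**Figure D2:**
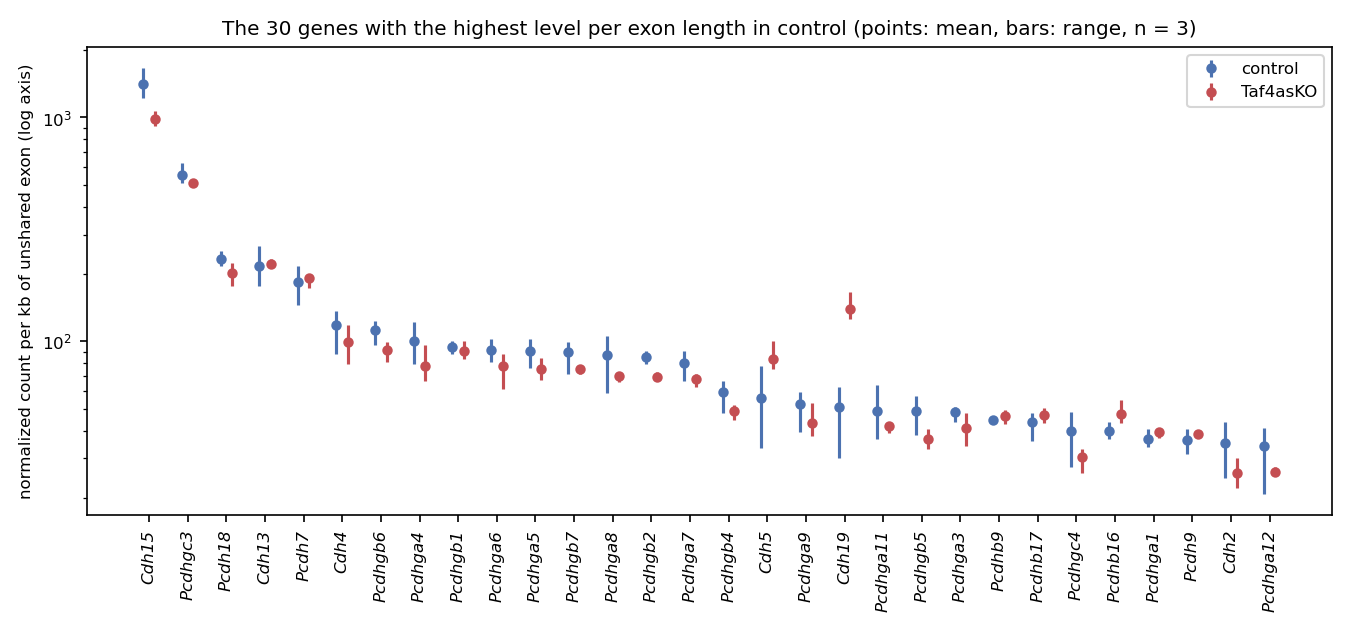
The 30 genes with the highest control level, ordered from left to right, as normalized counts per kilobase of unshared exon on a log axis. Points are means and bars the range of the 3 libraries of a group. Cdh15 leads in both groups, and Cdh19 is the gene whose Taf4asKO point (139) stands clearly above its control point (51.0).

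Cdh15 (ENSMUSG00000031962, chromosome 8, 122847966 to 122867397 on the plus strand of mm10) was lower in Taf4asKO. Control replicates 1, 2 and 3 held 3985, 5389 and 4442 normalized counts of it, and Taf4asKO replicates 2972, 3130 and 3462 (the same order of replicates is kept throughout). Every Taf4asKO library thus lay below every control library. The log2 fold change was -0.52 ± 0.12 (SE), with a 95% interval from -0.79 to -0.25, which is 1.44-fold lower (adjusted p = 0.0209 by limma, 0.0046 with the replicate number in the fit). Cdh15 was not past the threshold when any 1 Taf4asKO library was left out, with adjusted p of 0.0782, 0.0949 and 0.0502 by limma without replicates 1, 2 and 3. Set against Pax7, whose values were also below control, within each library, the ratio of Cdh15 to Pax7 was 0.33, 0.44 and 0.342 in control and 0.279, 0.302 and 0.31 in Taf4asKO, and these groups did not overlap either. This ratio was chosen after the values had been seen. In sorted bulk cells, fewer cells of a type and less RNA per cell cannot be told apart.

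Cdh2 (N-cadherin) did not pass the test. Its normalized counts were 301, 198 and 351 in control and 204, 244 and 179 in Taf4asKO. Control replicate 2 lay inside the Taf4asKO range. The log2 fold change was -0.41 ± 0.21 with an interval from -0.88 to 0.06 (adjusted p = 0.233 by limma), so a fall of the size seen for Cdh15 lies within it. Without control replicate 2 it was -0.65 with adjusted p = 0.0264 by limma.

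The other 2 type I cadherins did not pass by limma. Cdh4 was read at 639, 952 and 994 in control and 576, 716 and 863 in Taf4asKO, which overlap. Its log2 fold change was -0.25 (adjusted p = 0.412 by limma, 0.104 with the replicate number in the fit). Its gene ends 12778 bases from the end of Taf4 on chromosome 2. Cdh1 (E-cadherin, the cadherin of epithelial junctions) was read at 22, 73 and 59 in control and 90, 88 and 99 in Taf4asKO, so that all Taf4asKO values were above, with control replicate 1 the lowest. Its log2 fold change was 0.996 ± 0.378 with adjusted p = 0.113 by limma, and 0.0389 with the replicate number in the fit.

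**Figure D3:**
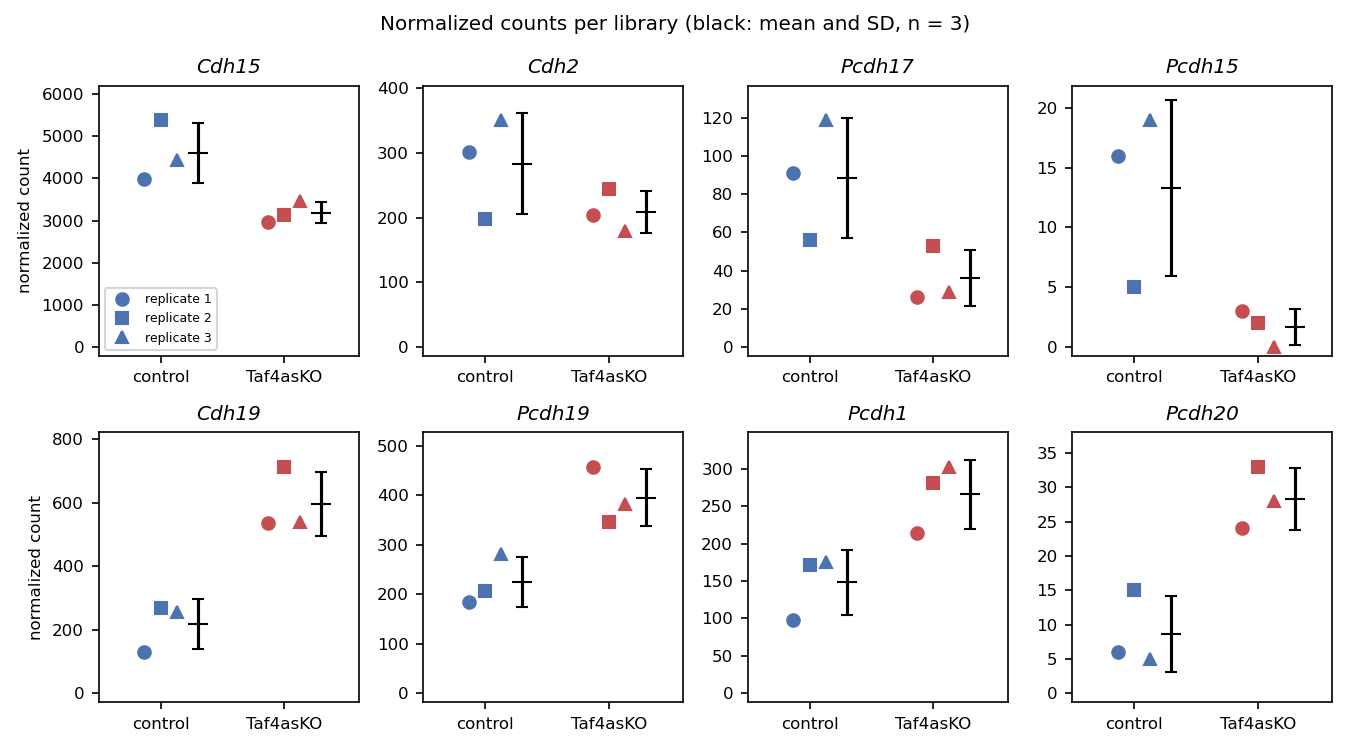
Normalized counts per library of Cdh15, Cdh2 and the 6 other genes past the threshold, with the group on the x axis, the replicate number as the symbol, and the mean and SD (n = 3) in black. The groups are apart in every panel but that of Cdh2, and control replicate 1 is the lowest control in the panels of Cdh15, Cdh19, Pcdh19 and Pcdh1.

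Among the type II cadherins, Cdh19 (chromosome 1, 110888326 to 110977363, minus strand), a cadherin known as a marker of Schwann cell precursors and other neural crest glia, showed the lowest adjusted p of the family. It was read at 129, 269 and 257 in control and 537, 714 and 539 in Taf4asKO. The lowest Taf4asKO library was thus well above the highest control library. The log2 fold change was 1.51 ± 0.25, with an interval from 0.94 to 2.07, or 2.84-fold higher (adjusted p = 0.00476 by limma). Without control replicate 1, the lowest control, the log2 fold change was 1.17. It stayed past the threshold in each of the 18 alternative settings run, including each left-out library, and was the only family member to do so.

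Several glial genes were higher as well. Of the 8 markers of Schwann or glial cells reported here, 5 rose (Sox10, Erbb3, Mbp, Cnp and Pmp22), Ngfr fell, and S100b and Gfra3 did not pass, where 5.93% of all genes rose. These 8 are not the whole of the list drawn up, so their share is not read as a result. Without control replicate 1, the lowest library for most of them, 4 of the 8 passed, beside 9.2% of all genes. The summed markers ranged from 3020 to 5103 normalized counts in control and from 6003 to 7254 in Taf4asKO, and none was at 0 in any library. Sox10, the transcription factor of the glial lineage, was read at 185, 534 and 420 in control and 734, 1016 and 900 in Taf4asKO. Cdh19 relative to Sox10 was 0.697, 0.504 and 0.612 in control and 0.732, 0.703 and 0.599 in Taf4asKO, which overlap. The ratio was picked after the values were known, and the part of glial RNA in the Cdh19 difference was not otherwise tested.

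Of the other 6 type II genes none passed by limma as fitted above, and 4 passed with the replicate number in the fit, where 18.1% of all genes did. Cdh10 was read at 9, 16 and 23 in control and 30, 34 and 55 in Taf4asKO without overlap (log2 fold change 1.299, adjusted p = 0.0546 by limma, 0.0138 with the term), and it also passed under trimmed-mean scaling (0.0499) and with a pseudocount of 5 (0.0493). Cdh11 (OB-cadherin of mesenchymal cells) gave 99, 158 and 262 against 276, 268 and 269, also apart (0.76, adjusted p = 0.109 by limma, 0.0342 with the term). Within Taf4asKO its 3 values were nearly equal, while the controls spread more than 2-fold.

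Cdh6 (K-cadherin) at 50, 45 and 84 in control overlapped 77, 108 and 112 in Taf4asKO (0.76, adjusted p = 0.0947 by limma, 0.0345 with the term). Cdh5 (VE-cadherin, the cadherin of endothelial junctions) at 141, 240 and 325 in control overlapped 316, 320 and 420 in Taf4asKO (0.65, adjusted p = 0.135 by limma, 0.0178 with the term). For all 4 genes control replicate 3 was the highest control, and without that library each passed, as the class then counted 5 of 7, beside 11.7% of all genes, against 1 of 7 with all libraries, beside 12.6%. Cdh20 and Cdh24, at means of 21.3 to 48.0 normalized counts, did not pass, with log2 fold changes of -0.22 and -0.38.

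Markers of other cell types were read beside these genes. Of 12 endothelial markers none passed by limma or limma-voom, 6 had an unadjusted p under 0.05 (28.8% of all genes did), and 3 passed with the replicate number in the fit (Esam, Flt1 and Kdr, all higher), beside 18.1% of all genes. The sum of the 12, of which Tek was a large part in every library, ranged from 1229 to 1793 in control and from 1639 to 2143 in Taf4asKO. Of 10 fibro-adipogenic markers Cd34, Col3a1 and Dpt fell, beside 12.6% of all genes called, and 5 more passed as higher with the term, beside 18.1%. Pdgfra, a defining receptor of those cells, was read at 49, 139 and 152 in control and 160, 203 and 247 in Taf4asKO. Control replicate 1 was the lowest library for Pdgfra and for Kdr, as it was for Cdh5 and Cdh11. Cdh5 over Kdr ran from 3.29 to 10.8 in control and from 2.62 to 5.02 in Taf4asKO, so that the groups overlapped. They also overlapped for Cdh5 over Tek (0.204 to 0.432 and 0.333 to 0.447) and for Cdh11 over Pdgfra. Before the sort, SCA1+, CD45+ and CD31+ cells were removed (SCA1 marks fibro-adipogenic and endothelial cells, CD45 immune cells and CD31 endothelial cells), and integrin-alpha7+ or zsGreen+ cells were then collected. The part of these cells in the cadherin values was not otherwise tested.

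Of the atypical and cadherin-related genes, Pcdh15 (chromosome 10, 73821867 to 74649737, plus strand), a tip-link component of inner-ear hair cells, fell from a low level. It was read at 16, 5 and 19 in control and 3, 2 and 0 in Taf4asKO, and the groups were apart. The log2 fold change of -2.47 ± 0.68 had an interval from -3.98 to -0.96 (adjusted p = 0.040 by limma), and it met the level limit through control alone. Of the 6 fits with a library left out it passed only in that without control replicate 2, the others giving adjusted p of 0.0545 to 0.134, and the call was lost under total-count scaling (adjusted p = 0.051 by limma) and with limma-voom (0.0594). Cdh23, the partner of Pcdh15 in tip links, was read at 91, 92 and 88 in control and 47, 57 and 82 in Taf4asKO, all below control (log2 fold change -0.57, interval -1.09 to -0.06, adjusted p = 0.132 by limma). Cdh13 (T-cadherin, which is anchored in the membrane by a lipid) was read at 1982, 2993 and 2322 against 2437, 2609 and 2460, with full overlap and a log2 fold change of 0.06 within -0.25 to 0.37. Cdh16, Cdhr4 and Cdhr5 had group means of 5 to 7.67 normalized counts and log2 fold changes of 0.20, 0.16 and -0.11, none of which passed.

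The non-clustered protocadherins held 4 of the 7 calls, which is 4 of 11 genes, beside 12.6% of all genes. Pcdh19 (X chromosome, 133582860 to 133688987, minus strand), a delta-2 protocadherin that also binds N-cadherin, was read at 185, 206 and 281 in control and 458, 346 and 382 in Taf4asKO. No control library reached a Taf4asKO value. The log2 fold change was 0.83 ± 0.18, interval 0.44 to 1.22, or 1.78-fold (adjusted p = 0.0138 by limma), and it lost the call without Taf4asKO replicate 1 (0.0632) or replicate 3 (0.0549). The X-inactivation RNA Xist also rose, and its part in the Pcdh19 value was not tested.

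Pcdh17, another delta-2 protocadherin, changed the opposite way. It gave 91, 56 and 119 in control and 26, 53 and 29 in Taf4asKO, where control replicate 2 and Taf4asKO replicate 2 nearly met (log2 fold change -1.28 ± 0.34, 2.43-fold lower, adjusted p = 0.036 by limma). It lost the call without control replicate 1 (adjusted p = 0.0818 by limma) or 3 (0.11) and without Taf4asKO replicate 1 (0.122) or 3 (0.132). Pcdh18 and Pcdh10, of the same class, gave log2 fold changes of -0.21 and 0.15 that did not pass, Pcdh18 at 1246, 1353 and 1167 in control and 1207, 1109 and 949 in Taf4asKO.

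Pcdh8 (paraxial protocadherin), among the lowest of the family per exon length in control, was read at 1, 0 and 4 in control and 9, 6 and 12 in Taf4asKO. All Taf4asKO values were above, from few counts (log2 fold change 2.17 ± 0.65, adjusted p = 0.0545 by limma, 0.0224 with the replicate number in the fit), and it met the level limit through Taf4asKO alone. Pcdh20 was similarly low, at 6, 15 and 5 in control and 24, 33 and 28 in Taf4asKO, without overlap (1.73 ± 0.43, 3.32-fold higher, adjusted p = 0.0259 by limma). Of the 6 fits with a library left out it passed only in that without control replicate 2, the others giving adjusted p of 0.0608 to 0.113 by limma.

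Pcdh1, a delta-1 protocadherin known from airway epithelium, was read at 98, 171 and 176 in control and 214, 281 and 303 in Taf4asKO. Control replicate 1 was far below the other controls, and the groups were apart (0.87 ± 0.23, 1.83-fold, adjusted p = 0.0363 by limma). Without that control replicate the log2 fold change was 0.60 with adjusted p = 0.0666 by limma, and without Taf4asKO replicates 1, 2 or 3 the adjusted p was 0.0511, 0.137 and 0.146. The remaining delta-1 genes did not differ beyond their spread. Pcdh7 was read at 1595, 1222 and 1822 in control and 1445, 1679 and 1673 in Taf4asKO (0.06, interval -0.26 to 0.38), and Pcdh9 and Pcdh11x gave 0.09 and 0.22. Pcdh12, a protocadherin of endothelial cells, was read at 13, 27 and 12 in control and 10, 21 and 28 in Taf4asKO, with overlap (0.15, interval -0.86 to 1.17).

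The 250 bases before the RefSeq start are shown for 4 of these protocadherins, 2 that fell and 2 that rose, since the study concerns a cofactor that joins the CCAAT-binding factor NF-Y. They are RefSeq sequence of GRCm38.p6, written 5′ to 3′ on the strand of the gene, and capitals mark CCAAT or GGGCGG on either strand (ATTGG or CCGCCC), which do not overlap here. The windows are chr10:73821617-73821866 (plus) for Pcdh15, chr14:84443313-84443562 (plus) for Pcdh17, chrX:133688994-133689243 (minus) for Pcdh19 and chr14:88471397-88471646 (minus) for Pcdh20.
Pcdh15: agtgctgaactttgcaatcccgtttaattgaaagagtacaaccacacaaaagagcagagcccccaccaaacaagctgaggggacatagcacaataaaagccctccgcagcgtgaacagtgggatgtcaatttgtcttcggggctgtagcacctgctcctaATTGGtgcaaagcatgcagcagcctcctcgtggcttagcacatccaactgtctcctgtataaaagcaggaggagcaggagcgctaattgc
Pcdh17: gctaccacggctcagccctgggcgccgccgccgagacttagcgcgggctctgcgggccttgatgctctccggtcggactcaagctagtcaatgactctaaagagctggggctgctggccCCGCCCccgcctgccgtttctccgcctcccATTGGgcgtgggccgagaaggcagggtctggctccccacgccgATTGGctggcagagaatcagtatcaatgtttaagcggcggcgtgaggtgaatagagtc
Pcdh19: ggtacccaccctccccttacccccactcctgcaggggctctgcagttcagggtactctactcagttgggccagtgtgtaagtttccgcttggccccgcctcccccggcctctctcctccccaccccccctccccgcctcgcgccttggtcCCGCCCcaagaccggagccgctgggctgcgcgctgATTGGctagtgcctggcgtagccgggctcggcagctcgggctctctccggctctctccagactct
Pcdh20: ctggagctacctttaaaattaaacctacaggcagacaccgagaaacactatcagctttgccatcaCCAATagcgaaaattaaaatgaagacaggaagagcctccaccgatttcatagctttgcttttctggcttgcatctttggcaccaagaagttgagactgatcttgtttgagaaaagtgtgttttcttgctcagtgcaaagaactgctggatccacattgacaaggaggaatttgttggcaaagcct
Pcdh17, which fell, held 2 CCAAT matches and 1 GGGCGG match, and Pcdh19, which rose, held 1 of each. Pcdh15 and Pcdh20 held a single CCAAT match each, 90 and 185 bases before the start. Of the 17 family genes with such a window, 9 (52.9%) had CCAAT, beside 33.8% of 32851 mouse promoters, and 7 (41.2%) had GGGCGG, beside 32.7%. TATAAA was in 2 of 17 (11.8%, beside 12.4%), and CANNTG, the E-box letters, in 10 (58.8%, beside 66.2%). The window of Cdh15 (chr8:122848124-122848373), not printed, held 3 GGGCGG matches and no CCAAT. It lies inside the gene, past the start given above. RefSeq starts and annotated gene starts differ for some genes, Cdh10 among them. A match is a description of letters and shows no binding.

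The clustered protocadherins lie in a tandem array on chromosome 18, where each gene of the alpha and gamma clusters joins its own variable exon to constant exons shared within the cluster, and each beta gene is a single exon. None of the 42 passed by limma, in the fit with the replicate number or with limma-voom. At an unadjusted p under 0.05 there were 4 (9.52%; Pcdhac2, Pcdhb7, Pcdhgb2 and Pcdhgb5), beside 28.8% of all genes, and the lowest adjusted p was 0.109 by limma and 0.0671 with the replicate number in the fit. Standard errors of the log2 fold changes ran from 0.107 to 0.393. The genes are similar in sequence and reads that mapped to several places had been removed, so levels between them are uncertain.

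The 2 larger clusters leaned to opposite sides. In the gamma cluster 18 of 20 genes had a log2 fold change below 0, with a median of -0.26 and a range from -0.41 to 0.11, and in the beta cluster 3 of 21 did, with a median of 0.12 and a range from -0.53 to 0.59. Over all genes 49.6% were below 0. The count stayed at 17 to 19 of 20 in the gamma cluster and at 2 to 6 of 21 in the beta cluster over the alternatives, other scalings included. Gamma genes share 31.5 to 66.8% of their exon bases with other genes of the same strand, their constant exons among them, and neighbours of an array are not independent measurements. No test was made of the clusters as units.

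Summed over the 20 gamma genes, control libraries held 4533, 3914 and 4605 and Taf4asKO libraries 3512, 3765 and 3877. The sums did not overlap, with control replicate 2 closest to Taf4asKO. Control replicate 2 was the lowest control for 16 of the 20 genes. Without it the gamma median was -0.39 and 4 of the 20 genes passed as lower (Pcdhga8, Pcdhga12, Pcdhgb5 and Pcdhgc4), near the 16.8% of all genes that passed there, whereas without control replicate 1 or 3 the median was -0.18 and none passed. The 21 beta genes summed to 1703, 1901 and 1908 in control and 1866, 2147 and 2084 in Taf4asKO, which overlap. Within each replicate number the Taf4asKO sum was the higher one.

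Single members followed the same lines. Pcdhgc3, the most abundant, was read at 932, 1139 and 953 in control and 919, 964 and 910 in Taf4asKO (log2 fold change -0.11, interval -0.35 to 0.13). Pcdhgb6 gave 301, 247 and 315 against 208, 243 and 256 (-0.28, adjusted p = 0.228 by limma), and Pcdhgb1 gave 230, 251 and 264 against 230, 262 and 218 (-0.07). Of the gamma genes only Pcdhgb2 had no overlap, at 218, 239 and 250 against 186, 202 and 187 (-0.30, adjusted p = 0.166 by limma). Pcdhb7 had the largest log2 fold change of the beta genes, at 45, 48 and 34 against 58, 59 and 75 (0.59, adjusted p = 0.131 by limma). Pcdhac2, the sole alpha-cluster gene above the level limit, was read at 31, 30 and 37 in control and 23, 19 and 13 in Taf4asKO, all below control (-0.83, interval -1.52 to -0.14, adjusted p = 0.109 by limma).

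**Figure D4:**
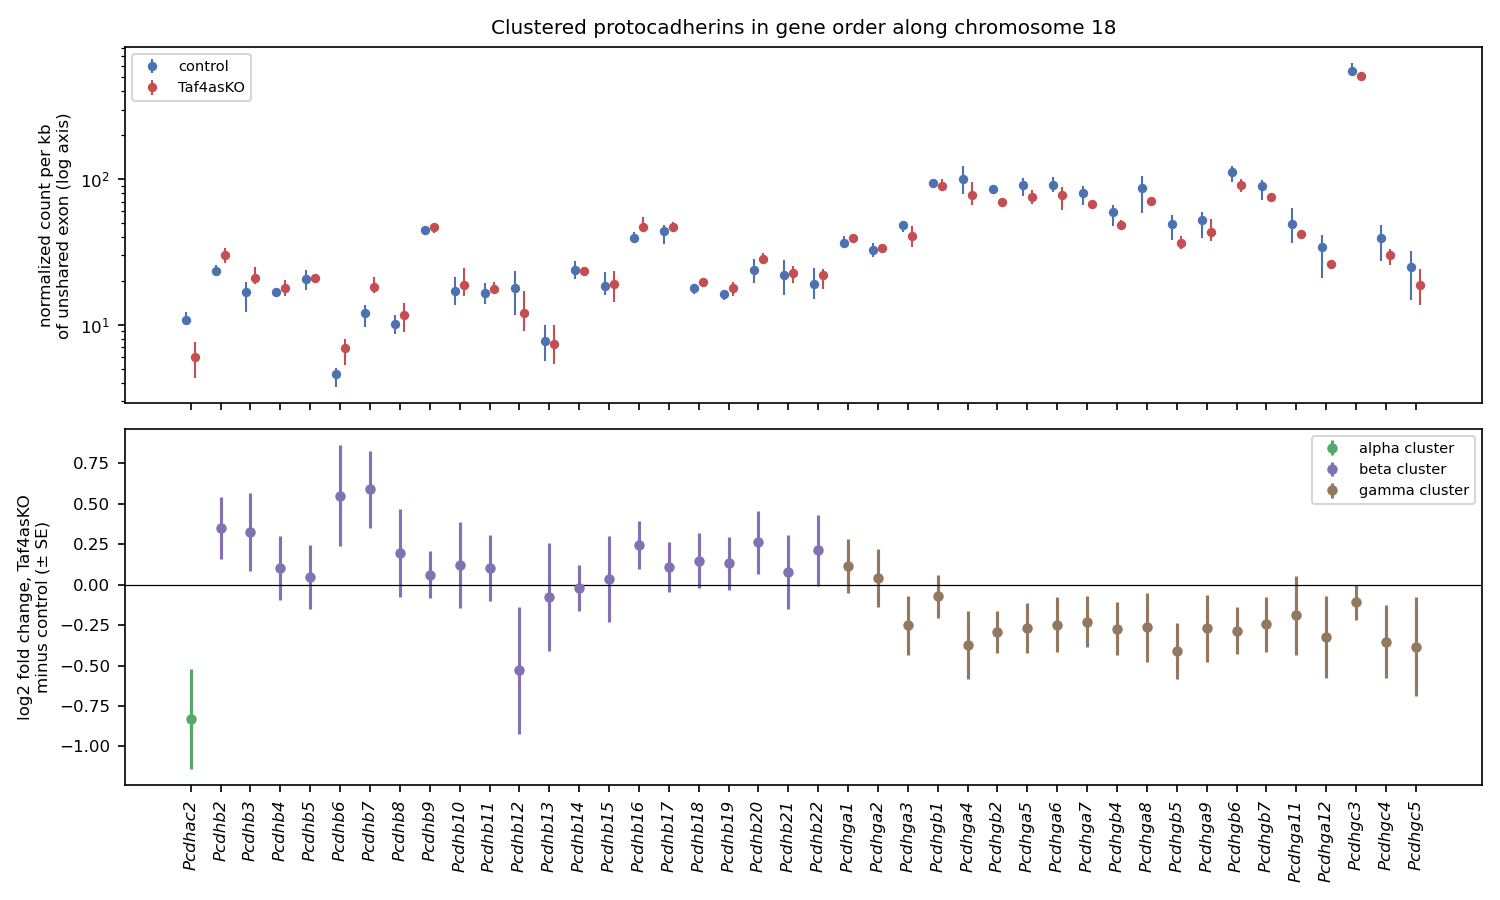
The 42 clustered protocadherins in gene order. The upper panel gives normalized counts per kilobase of unshared exon on a log axis (points: mean, bars: range of 3 libraries), and the lower panel the log2 fold change (Taf4asKO minus control) ± SE. Gamma genes lie mostly below 0 and beta genes mostly above, with differences of the order of their SE, and Pcdhgc3 stands above its neighbours in level.

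Genes that work with cadherins were read in 8 lists of 102 tested genes. Of these, 22 (21.6%) passed, 12 lower and 10 higher in Taf4asKO, beside 12.6% of all genes and 15.1% of the protein-coding ones. With the replicate number in the fit 28 (27.5%) passed, beside 18.1% and 21.4%. Without Taf4asKO replicate 1, 2 or 3 the count was 13, 9 and 10, beside 6.98%, 5.18% and 5.17% of all genes. Among 12 catenins, Ctnnb1 (beta-catenin) rose from 3871, 4313 and 3460 in control to 5292, 4823 and 5032 in Taf4asKO (log2 fold change 0.38, adjusted p = 0.0372 by limma). Ctnnd1 (p120-catenin, which holds classical cadherins at the membrane) rose from 318, 303 and 290 to 447, 424 and 408 (0.49, adjusted p = 0.0189 by limma). Pkp4, a plakophilin of the same family as p120-catenin, fell from 846, 774 and 604 to 449, 429 and 448 (-0.73), and the neuronal alpha-catenin Ctnna2 fell from 15, 39 and 19 to 4, 3 and 11 (-1.91). Ctnnb1 and Ctnnd1 thus stood apart from the controls in every Taf4asKO library, and both bind the tail of classical cadherins. The Ctnnb1 call was lost under upper-quartile scaling, where its change of 0.35 was under the fold limit, and in 5 of 6 fits with a library left out. Over the 18 alternative settings Ctnnb1 lost the call in 9, Ctnnd1 and Ctnna2 in 6 each and Pkp4 in 2.

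Adherens junction partners gave 8 calls of 20, 4 in each direction, beside 12.6% of all genes. Plekha7, which links p120-catenin to microtubules, fell from 331, 267 and 451 to 53, 99 and 71 (-2.23 ± 0.25, adjusted p = 0.000686 by limma). Nectin2, an immunoglobulin-type adhesion molecule of the junction, fell from 211, 151 and 161 to 72, 58 and 56 (-1.47). The receptor phosphatase Ptprf fell from 2860, 4129 and 2900 to 1526, 1637 and 1593 (-1.04), whereas Ptprm rose from 77, 106 and 173 to 191, 225 and 223 (0.91). The first 3 kept the call in each alternative, and Ptprm lost it under upper-quartile scaling (adjusted p = 0.0504 by limma) and in 5 of 6 fits that left out a library.

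Of 14 other cadherin superfamily genes, 3 fell and 2 rose, beside 6.71% and 5.93% of all genes. Ret, a receptor tyrosine kinase with cadherin-like repeats, fell from 1747, 2501 and 1065 to 409, 392 and 335 (-2.14 ± 0.25, adjusted p = 0.000797 by limma). Dchs1, the protocadherin that binds Fat4, fell by 0.82 on the log2 scale, and Clstn3 (calsyntenin 3) by 0.77. Clstn2 rose from 132, 56 and 141 to 260, 202 and 244 (1.20), and Fat1, a giant cadherin, rose by 0.58. With the replicate number in the fit 8 of the 14 passed, beside 18.1% of all genes, with Celsr2 as lower and Fat3 and Dchs2 as higher in addition. Ret kept its call in each of the 18 alternative settings, while Clstn2 lost it in 6, total-count scaling among them (adjusted p = 0.0544 by limma), Clstn3 in 5 and Dchs1 in 2.

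The other lists held fewer calls. Of 10 sheddases and gamma-secretase subunits, which cut cadherins off the surface, Adam17 alone passed (10.0%), near the 12.6% of all genes. It rose from 611, 778 and 606 to 980, 992 and 1075 (0.62), and the list median was 0.005. Of 20 regulators of the protocadherin clusters, the DNA methyltransferases Dnmt1 (-0.50) and Dnmt3a (-0.49) and the CTCF partner Wiz (-0.44) fell, 3 of 20 against 12.6% of all genes (15.1% of the protein-coding ones) and so near the background, and the list median was -0.03. Without control replicate 1, 1 of the 20 passed, beside 9.2% of all genes. Dnmt1, Dnmt3a and Wiz lost the call in 8, 6 and 5 of the 18 alternative settings. None of 8 repressors of cadherin genes (the Snai, Zeb and Twist families among them) and none of 9 WAVE complex genes, which delta protocadherins recruit, passed by limma or limma-voom. At an unadjusted p under 0.05 there were 3 and 4 of them, beside 28.8% of all genes, and Wasf3 passed as lower with the replicate number in the fit, where 18.1% of all genes did. Of 9 genes in protocadherin signalling, most of them kinases, Prkca alone passed (11.1%), near the 12.6% of all genes. It rose from 191, 258 and 255 to 372, 460 and 420 (0.84). Ctnnb1, Nectin2, Adam17, Dchs1, Fat1, Dnmt3a, Wiz and Prkca overlap a gene on the other strand. Of the 7319 exon bases of Ctnnd1, 2837 are shared with no other gene, and reads that overlap several genes had been left out.

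**Figure D5:**
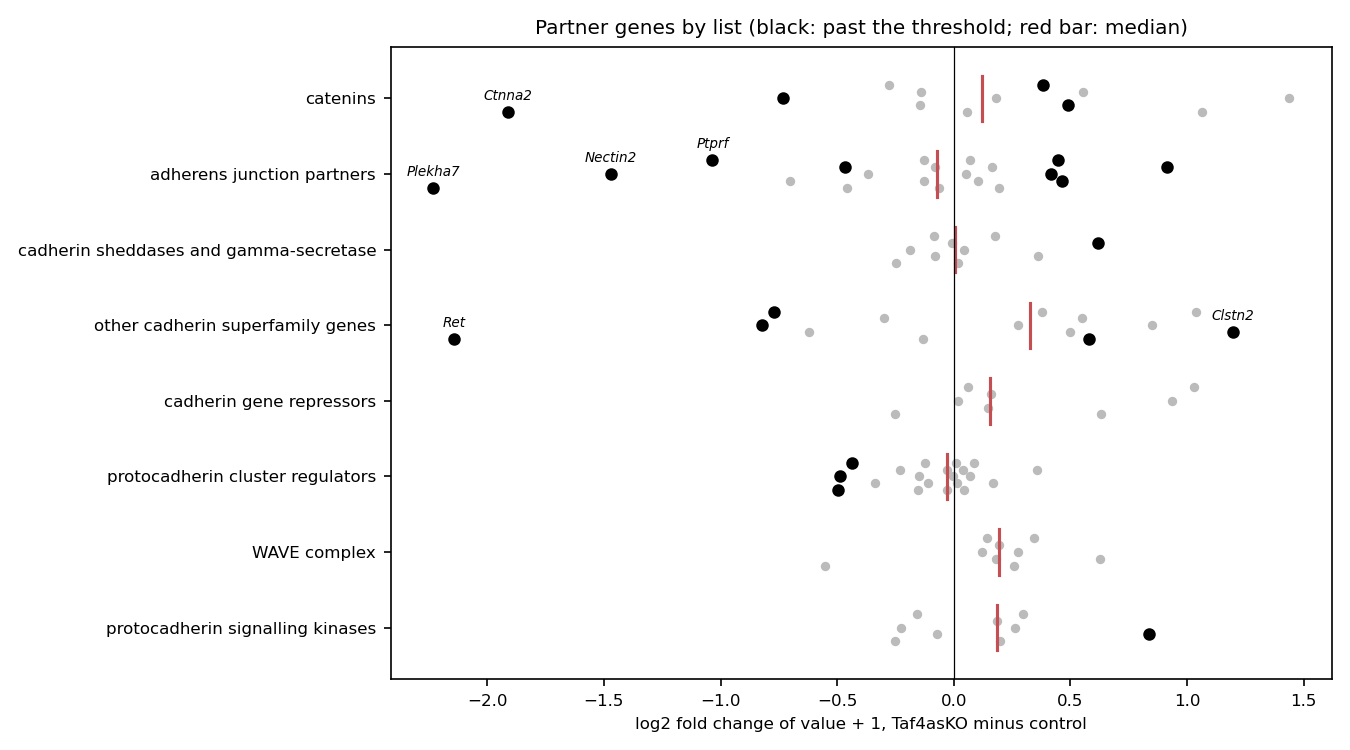
Log2 fold change (Taf4asKO minus control) of each tested partner gene, 1 list per line, with genes past the threshold in black and the list median as a red bar. Medians lie between -0.07 and 0.33, and the genes past the threshold lie on both sides of 0 in the catenins, the adherens junction partners and the other cadherin superfamily genes.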

How the data were processed

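Total RNA of sorted MuSCs was sequenced in 3 control and 3 Taf4asKO libraries. The deposited score is a normalized count: per the labels and the study's methods, the authors trimmed reads with Trimmomatic 0.39, aligned them to mm10 with STAR 2.6.0c, removed multi-mapping reads, counted exon reads with featureCounts 1.6.0 leaving out reads that overlap several genes, divided by DESeq2 1.14.1 size factors and rounded. The kit was stranded, but use of strand in counting is not given in the sources used here, so a gene and an antisense partner may share reads. Removal of shared reads leaves gamma protocadherins counted mainly by their variable exons.

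Since the values are not raw counts, no count model was used. limma 3.58.1 (R 4.3.3; lmFit and eBayes with a trend, two-sided) was fitted to log2(value + 1) of the 18562 genes with a mean of at least 5, with Benjamini-Hochberg adjustment over all of them. Fold changes are on that scale and understate changes of low genes. The threshold was an adjusted p of 0.05 and 1.3-fold. Alternatives were the replicate number as a block, upper-quartile, total-count and trimmed-mean scaling, pseudocounts of 0.5 and 5, no filter or a mean of 10, limma-voom, limma treat, a fold limit of 2, an adjusted p of 0.01, leaving out each library and, added after seeing the data, exon lengths that keep overlaps with the other strand. The script was tested on simulated data. Same-numbered libraries of the 2 groups, numbered in the titles, had correlated deviations from their group means over genes (0.235, 0.126 and 0.15, against -0.149 to 0.014 for different numbers), so the numbers were taken as pairs. The labels do not say what a number marks. The pairing was thus read from the same values that were tested, and calls made only with it rest on that choice.

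Exon lengths came from GENCODE M21 and promoter windows from RefSeq (GRCm38.p6). The 45 family genes on chromosome 18 were left out of the windows, and 17 of the other genes were matched. Size factors, and from them reads, were estimated from which whole numbers occur in each column. By rule, the genes named were Cdh2, Cdh15, members past the threshold with or without the block, the 6 highest per exon length, the 3 highest clustered genes, members known as markers of other cells, and up to 4 per partner list; any other gene was picked out once its values were known. The members and lists were chosen with earlier results of these data known. The glial marker list was longer when drawn up, and some of its members are not reported here.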

Additional observations from a re-analysis of the deposited data

How the results depend on the processing

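Of the 70 genes, 7 passed. The replicate block gave 13, limma treat 1, a fold limit of 2 gave 4 and an adjusted p of 0.01 gave 1, while leaving out a library gave 1 to 13. Of the genes that fell (3), limma treat and an adjusted p of 0.01 left 0 each, and leaving out a library gave 0 to 8. Of those that rose (4), the block gave 10, limma treat 1, a fold limit of 2 gave 2, an adjusted p of 0.01 gave 1, and leaving out a library 1 to 8. The partner genes (22) went from 9 to 24 with a library left out, and the 28 under the block are within 1.5 times that count. With alternatives added after seeing the data, limma treat gave 4, a fold limit of 2 gave 6 and an adjusted p of 0.01 gave 9. For Cdh15 the log2 fold change of -0.52 was no longer past limma treat, a fold limit of 2 or an adjusted p of 0.01, and it ran from -0.62 to -0.40 with a library left out. Cdh2 ran from -0.65 (past the threshold, without control replicate 2) to -0.24. Signs turned for Cdh13 (-0.076 without control replicate 1, up to 0.221 with another library left out), Pcdh7 (-0.096 without control replicate 2, up to 0.192) and Pcdh12 (-0.048 without control replicate 3, -0.146 without Taf4asKO replicate 3, up to 0.554), none of which was past the threshold. Of 664 values of the other 37 named genes, 542 kept direction and call, 103 lost the call, 15 gained it and 4 turned. The median over all genes moved to -0.03 under upper-quartile and 0.03 under trimmed-mean scaling. Keeping exon overlaps with the other strand, an alternative added after seeing the data, moved the control level of Pcdhgc3 from 554 to 298 and of Pcdh7 from 185 to 146 per kilobase. Of the genes named by rule, the block changed the calls of Cdh1, Cdh5, Cdh6, Cdh10, Cdh11 and Pcdh8 only. The causes were not tested. With 3 libraries a group, genes under about 20 normalized counts had the widest intervals, and intervals cover the spread between these libraries only.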

Other observations

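Further rows with family names were outside the 70 genes. Cdh17 (3, 3 and 5 normalized counts in control, 7, 4 and 6 in Taf4asKO), Cdh3 (1, 6 and 5, then 7, 2 and 4) and Pcdha12 (1, 1 and 2, then 5, 0 and 1) had means under 5, and Pcdhgb8, annotated as a polymorphic pseudogene, was read at 139, 86 and 130 in control and 90, 115 and 103 in Taf4asKO.

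Further marker lists were read once, where 12.6% of all genes passed by limma (6.71% lower, 5.93% higher) and 18.1% with the replicate block (9.09% higher). Of 10 MuSC markers, Sdc4, Msc and Vcam1 rose, and Myf5 and Itga7 fell, with sums of 40915 to 45999 in control and 43956 to 45436 in Taf4asKO. Fibro-adipogenic markers summed to 56496 to 82997 in control and 34179 to 56570 in Taf4asKO, although the median log2 fold change of the 10 was 0.79. With the block, 3 of them passed as lower and 5 as higher. Of 8 pericyte or smooth muscle markers, Rgs5 and Myh11 rose (sums 25670 to 30608 and 26506 to 31324), and 6 passed as higher with the block. Of 8 muscle fibre markers, Atp2a1 fell (2205 to 6020 and 2625 to 3263). None of 6 tenocyte markers passed by limma or limma-voom or had an unadjusted p under 0.05, and 4 passed as higher with the replicate block, with sums of 2055 to 14220 in control and 7109 to 16299 in Taf4asKO. Of 8 immune markers 3 were tested and none passed by limma or limma-voom, 1 (Lyz2) had an unadjusted p under 0.05 and passed as higher with the block, and Ptprc, Adgre1, C1qa, Itgam and Cd52 were below the level limit.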
